A study of Mus musculus with 18 samples.

Results

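The 53 genes described here mark the first lineages of the mouse embryo: 13 mark endoderm, 13 mesoderm, 16 the neural lineage, and 11 trophectoderm, the outer layer of the blastocyst that builds the placenta. They were taken by gene symbol, and all 53 were measured among the 19935 genes named on the arrays. Each gene is read by 1 probe set that names that gene alone; where a gene had several, the probe set brightest on average over the 18 arrays stands for it.

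RNA was taken from mouse embryonic stem cells that were kept, in every group, in serum-containing medium with leukemia inhibitory factor (LIF), a cytokine that holds such cells undifferentiated. The mouse embryonic stem cell line R1E was mock treated, given 0.5 µM adriamycin (doxorubicin, a topoisomerase poison that breaks DNA) or given 25 J/m2 of ultraviolet light (UV), with 4 arrays a group. The labels give 8 h for the adriamycin and UV treatments and no time for the mock arrays. Embryonic stem cells without the tumour suppressor p53 (p53-/-, background 129X1 x 129S1) were left untreated or given 0.5 µM adriamycin for 8 h, with 3 arrays a group. The submitters' design text asks which adriamycin responses depend on p53. The labels give no genotype for R1E cells, and do not say whether the p53-/- cells are 1 clone. They also leave unsaid whether replicate arrays stem from different cultures, and the p-values therefore rest on a spread between arrays that may be technical only. Trp53, the gene that encodes p53, was not analysed here, so the p53-/- label was not checked on it. R1E and p53-/- arrays were normalized separately, and wherever the lines are set side by side the genotype cannot be told apart from the line, the array set or the software.

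In the embryo, primitive endoderm is set up by GATA factors and gives rise to the yolk sac, while mesoderm and definitive endoderm form at the primitive streak under Eomes, Mixl1, Goosecoid and the Mesp factors. SOX and PAX factors establish the neural plate, and Tead4, Cdx2, Gata3 and Tfap2c establish trophectoderm. Undifferentiated embryonic stem cells hold most of these genes low, and marker levels are commonly used to follow their exit from pluripotency. Some markers are also used outside their lineage: Gbx2 acts downstream of LIF in undifferentiated cells, Pou3f1 is high in the epiblast, Pdgfra and Sparc are also made by fibroblasts, and Eomes is also a trophoblast factor.

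Values are log2 intensities. A change is the difference of 2 group means on the log2 scale, given ± its moderated standard error (SE), and a gene was called when its Benjamini-Hochberg adjusted p, over all 19935 genes in limma, was below 0.05. "Rose" and "fell" are used of called genes. Array medians lay between 5.30 and 5.61. Among 20 markers of undifferentiated cells 1 was dim in R1E and 0 in p53-/- cells, where dim means that the highest group mean of a gene in a set lay below the median of all genes there (5.99 in R1E, 5.63 in p53-/-). Pou5f1, the core pluripotency factor, had a mean of 11.99 on the mock and 10.99 on the untreated p53-/- arrays. By this limit 9375 of all 19935 genes were dim in R1E and 9684 in p53-/- cells. Of 16 fibroblast markers 8 were dim in R1E and 2 in p53-/- cells. Their mean level ran from 5.27 to 5.37 on the mock, 5.48 to 5.58 on the adriamycin, 5.41 to 5.50 on the UV, 7.33 to 7.39 on the untreated p53-/- and 7.14 to 7.38 on the treated p53-/- arrays. Among the p53-/- arrays, untreated replicate 3 stood apart, with a mean correlation of 0.9847 to its group against 0.989 to 0.9926 for the others and 0.9976 to 0.9984 for the R1E arrays.

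Of the 53 lineage genes, 32 were dim in R1E cells, namely 6 of 13 endoderm, 11 of 13 mesoderm, 10 of 16 neural and 5 of 11 trophectoderm genes. In p53-/- cells 22 were dim, namely 2 endoderm, 11 mesoderm, 7 neural and 2 trophectoderm genes. Over all 19935 genes, 9375 were dim in R1E and 9684 in p53-/- cells. Detection calls were not used here, so a dim gene is one in the lower range of the array, not one shown to be silent.

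After adriamycin, R1E cells had higher levels of 7 lineage genes and lower levels of 16, and 30 did not pass the test. The share called was 22.1% of all genes higher, 25.6% lower and 47.7% either way, so a call alone was common. Mesp2, a segmentation factor of presomitic mesoderm, had the highest rise at 4.15-fold, and Eomes, Gbx2 and Tead4 fell by more than 2-fold. These 4 were the lineage genes called with a change of at least 2-fold, beside 5.37% of all genes. Between adriamycin and mock the groups did not overlap for 21 of the 53 genes (39.6%), beside 45.6% of all genes. The median change was -0.08 over the 53 genes and -0.02 over all genes. In lineage terms, 3 endoderm genes rose and 3 fell, 2 mesoderm genes rose and 4 fell, 1 neural gene rose and 5 fell, and 1 trophectoderm gene rose and 4 fell. With each array centred on its own median, which moved the median of all genes by -0.089, the counts were 6 higher and 28 lower, and the share of higher among all called genes went from 46.3% to 30.7%. In these bulk samples fewer cells of a type and less RNA per cell cannot be told apart. Markers of undifferentiated cells moved in the same arrays: 19 of 20 fell after adriamycin and none rose, among them Zfp42 (-1.75), Nanog (-1.12), Sox2 (-0.55) and Pou5f1 (-0.18). The part of that fall in the lineage changes was not tested.

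UV gave 10 lineage genes higher, 9 lower and 34 not called, where 22.6% of all genes were called higher, 21.2% lower and 43.9% either way. The median change was 0.02 over the 53 genes and 0.03 over all genes. Mesp2 again had the highest rise, at 2.87-fold, and was the 1 lineage gene called at 2-fold or more, beside 2.56% of all genes. Eomes and Map2 had the largest falls, each 1.64-fold. UV and mock arrays did not overlap for 14 of the 53 genes (26.4%), beside 40.7% of all genes. The higher count rested on single arrays: it was 6 without mock replicate 1, without mock replicate 2 or without UV replicate 3, and 5 without UV replicate 4. With arrays centred on their medians it was 4 higher and 12 lower, with a shift of -0.091 in the median of all genes and a share of higher among all called genes of 32.9% in place of 51.6%. Of the 20 markers of undifferentiated cells 14 fell after UV and none rose. Adriamycin and UV are both set against the same 4 mock arrays.

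Set directly against UV, a comparison in which the mock arrays enter only the shared estimate of the spread, adriamycin gave 5 lineage genes higher and 16 lower, where 19.8% of all genes were called higher, 22.2% lower and 42% either way. The lower genes were 9 neural, 4 trophectoderm and 3 mesoderm genes, and none was an endoderm gene. Eomes, Gbx2 and Tead4 differed by 2-fold or more, beside 1.35% of all genes, and the groups did not overlap for 20 of the 53 genes (37.7%), beside 38.3% of all genes. The median difference was -0.11 over the 53 genes and -0.04 over all genes.

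**Figure D1:**
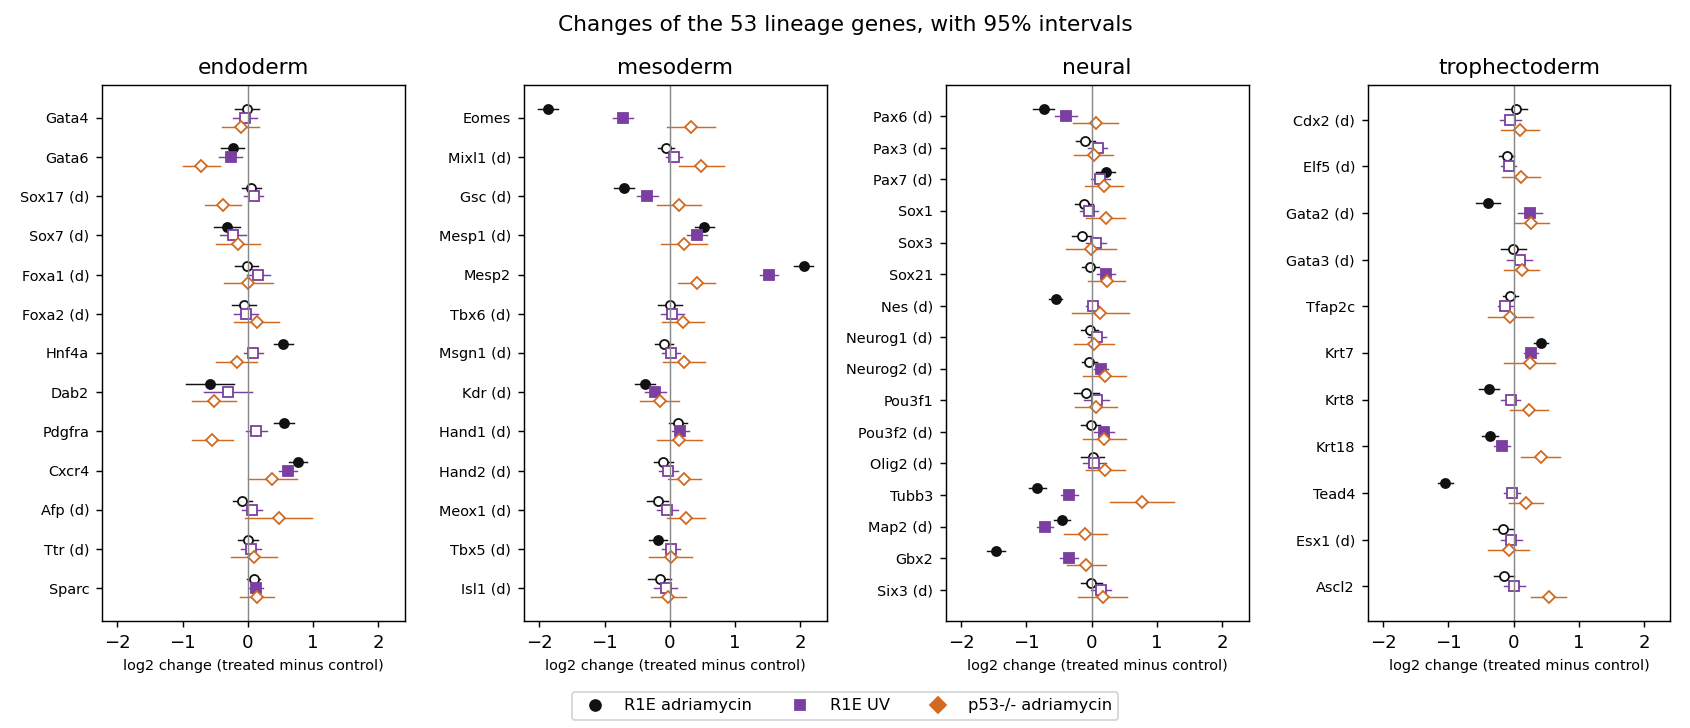
Log2 change of each of the 53 lineage genes after adriamycin in R1E (black circles), UV in R1E (purple squares) and adriamycin in p53-/- cells (orange diamonds), with 95% intervals, by lineage; filled symbols passed the test and (d) marks genes dim in R1E. Mesp2 at 2.05 and Eomes at -1.87 mark the ends of the R1E adriamycin changes, and no p53-/- diamond is filled.

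Among the endoderm genes, those that rose in R1E after adriamycin were 2 surface receptors and 1 nuclear receptor, and the GATA and SOX factors that specify the lineage did not rise. Cxcr4, the chemokine receptor of definitive endoderm, read 6.23, 6.36, 6.48 and 6.33 on the mock arrays, 7.11, 7.06, 7.16 and 7.18 after adriamycin and 6.97, 6.92, 6.86 and 7.14 after UV. Every treated array was above every mock array, and the treated groups overlapped each other. Cxcr4 rose by 0.78 ± 0.066 after adriamycin (adjusted p = 3.89e-08) and 0.62 ± 0.066 after UV (adjusted p = 8.36e-07), and its difference between the treatments was not called (0.15 ± 0.066). Pdgfra, the platelet-derived growth factor receptor of primitive endoderm and of mesenchymal cells, read 5.41, 5.55, 5.50 and 5.55 in mock, 5.94, 6.19, 6.10 and 6.01 in adriamycin and 5.62, 5.44, 5.68 and 5.80 in UV samples. The adriamycin arrays stood above all others, while the UV arrays overlapped the mock arrays. Its rise was 0.56 ± 0.073 after adriamycin (adjusted p = 6.37e-06), its UV change 0.13 ± 0.073 was not called, and it was 0.43 ± 0.073 higher after adriamycin than after UV. Beside it, 5 of 16 fibroblast markers rose and 1 fell after adriamycin, so 37.5% were called, beside 47.7% of all genes. Fbln2 (1.78 ± 0.069), Mmp2 (1.02 ± 0.062), Col1a1 (0.60 ± 0.067), Col5a1 (0.38 ± 0.053) and Pdgfrb (0.27 ± 0.074) were higher and Thy1 (-0.35 ± 0.072) lower. Col1a2 (-0.06 ± 0.067) and Col3a1 (0.01 ± 0.063) were not called. The part of these markers in the Pdgfra value was not tested. Hnf4a, a nuclear receptor of visceral endoderm and liver, read 6.48, 6.34, 6.54 and 6.65 in mock, 6.96, 7.01, 7.13 and 7.09 after adriamycin and 6.45, 6.70, 6.62 and 6.57 after UV. Again the 4 adriamycin arrays lay above the 8 others. The rise was 0.55 ± 0.070 (adjusted p = 4.58e-06), and adriamycin exceeded UV by 0.47 ± 0.070.

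Gata6, the zinc-finger factor that starts the primitive endoderm programme, read 6.89, 6.87, 6.83 and 6.78 in mock, 6.59, 6.71, 6.62 and 6.51 after adriamycin and 6.55, 6.31, 6.63 and 6.84 after UV. The adriamycin arrays were all below the mock arrays, whereas 1 UV array lay inside the mock range. Its falls were small, -0.23 ± 0.084 after adriamycin (adjusted p = 0.0296) and -0.26 ± 0.084 after UV (adjusted p = 0.0186). The adriamycin call was lost without mock replicate 1, 2 or 3 or adriamycin replicate 1 or 4 (adjusted p from 0.0513 to 0.0881), and the UV call without UV replicate 2 (-0.17, adjusted p = 0.064). Its partner Gata4 read 6.68, 6.73, 6.85 and 6.71 in mock, 6.77, 6.79, 6.53 and 6.83 after adriamycin and 6.60, 6.69, 6.54 and 6.99 after UV, with all groups overlapping. The Gata4 change was -0.01 ± 0.089 after adriamycin (95% interval -0.20 to 0.18) and -0.04 ± 0.089 after UV (-0.23 to 0.15), and neither was called. Sox17, a SOX factor of endoderm that was dim in R1E, read 4.43, 4.23, 4.33 and 4.47 in mock, 4.42, 4.49, 4.27 and 4.49 after adriamycin and 4.39, 4.37, 4.60 and 4.48 after UV. These groups overlapped as well, with changes of 0.05 ± 0.069 (95% interval -0.10 to 0.20) and 0.09 ± 0.069 (-0.05 to 0.24). Sox7, the related factor of parietal endoderm, fell by 0.32 ± 0.093 after adriamycin with no overlap of the groups, and its UV change of -0.22 ± 0.093 was not called.

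Dab2, an endocytic adaptor of extraembryonic endoderm, fell by 0.58 ± 0.173 after adriamycin (adjusted p = 0.0103), although the groups overlapped. A second probe set for Dab2, dim at 3.01 in mock, changed by -0.01. Sparc, a secreted matrix protein, rose after UV by 0.13 ± 0.047 (adjusted p = 0.04). That call was lost without mock replicate 1, 2 or 3, UV replicate 2, 3 or 4 or adriamycin replicate 1, with adjusted p up to 0.107. It was also lost with arrays centred on their medians (0.04, adjusted p = 0.576) and with only the UV and mock arrays in the fit (adjusted p = 0.0591). The forkhead pioneer factors Foxa1 and Foxa2 and the secreted liver and yolk sac proteins Afp and Ttr were dim in R1E and were called in no comparison, with changes against mock between -0.08 and 0.16.

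The mesoderm list held both the largest rise and the largest fall of the 53 genes. Mesp2 read 5.49, 5.69, 5.73 and 5.54 in mock, 7.54, 7.69, 7.66 and 7.76 after adriamycin and 7.22, 7.07, 7.20 and 7.04 after UV. The 3 groups did not overlap, with adriamycin highest and mock lowest. Mesp2 rose by 2.05 ± 0.067 after adriamycin (adjusted p = 3.08e-13) and 1.52 ± 0.067 after UV (adjusted p = 3.43e-11), and the excess of adriamycin over UV was 0.53 ± 0.067. Mesp1, its neighbour and the earliest factor of cardiac mesoderm, was dim and read 4.40, 4.18, 4.39 and 4.40 in mock, 4.82, 5.07, 4.76 and 4.86 after adriamycin and 4.71, 4.86, 4.69 and 4.81 after UV. Both treated groups were wholly above mock and overlapped each other. The rises were 0.53 ± 0.071 (adjusted p = 8.03e-06) and 0.42 ± 0.071 (adjusted p = 0.000119), with no call between the treatments (0.11 ± 0.071).

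Mesp1 and Mesp2 lie 17.1 kb apart on chromosome 7 with 0 protein-coding genes between them, on opposite strands. Since both rose after both treatments, the 250 bases before each start are shown from RefSeq (GRCm38.p6), 5′ to 3′ on the gene's strand with CG dinucleotides in capitals: Mesp2 at chr7:79810477-79810726 on the plus strand and Mesp1 at chr7:79793591-79793840 on the minus strand.
Mesp2: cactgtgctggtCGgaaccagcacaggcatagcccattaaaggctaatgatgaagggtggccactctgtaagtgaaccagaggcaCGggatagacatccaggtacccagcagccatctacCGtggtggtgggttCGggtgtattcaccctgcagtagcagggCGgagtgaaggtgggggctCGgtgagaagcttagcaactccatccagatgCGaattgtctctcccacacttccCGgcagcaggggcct
Mesp1: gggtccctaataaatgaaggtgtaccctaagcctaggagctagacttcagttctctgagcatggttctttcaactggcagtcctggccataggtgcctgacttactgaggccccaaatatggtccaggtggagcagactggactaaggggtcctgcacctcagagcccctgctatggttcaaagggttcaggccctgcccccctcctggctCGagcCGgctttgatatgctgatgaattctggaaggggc
The Mesp2 stretch held 8 CG dinucleotides and the Mesp1 stretch 2, where the median over the promoters of the lineage genes was 15 and over all promoters 6.

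Eomes, the T-box factor that opens the mesendoderm programme at the primitive streak, read 7.33, 7.21, 7.15 and 7.40 in mock, 5.30, 5.37, 5.51 and 5.43 after adriamycin and 6.58, 6.4, 6.53 and 6.72 after UV. The groups did not overlap, with adriamycin lowest and UV between. The fall was 1.87 ± 0.074 after adriamycin (3.66-fold, adjusted p = 2.86e-12) and 0.72 ± 0.074 after UV (adjusted p = 6.01e-07), and adriamycin lay 1.15 ± 0.074 below UV. Gsc, the homeobox factor Goosecoid of the anterior streak, was dim and read 5.66, 5.55, 5.46 and 5.83 in mock, 5.02, 4.82, 4.97 and 4.88 after adriamycin and 5.25, 5.24, 5.40 and 5.24 after UV. It followed the order of Eomes with no overlap of groups. Its changes were -0.70 ± 0.073 and -0.34 ± 0.073, both called, with a difference of -0.36 ± 0.073 between the treatments. Mixl1, the third streak factor, was dim at 4.70, 4.74, 4.75 and 4.80 in mock, 4.63, 4.76, 4.57 and 4.80 after adriamycin and 4.87, 4.73, 4.75 and 4.88 after UV. All its groups overlapped, and neither -0.06 ± 0.059 (95% interval -0.18 to 0.07) nor 0.07 ± 0.059 (-0.06 to 0.19) was called, although with arrays centred on their medians the adriamycin change of -0.15 was called (adjusted p = 0.0408).

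Kdr, the receptor for vascular endothelial growth factor on blood and vessel precursors, was dim at 4.83, 4.61, 4.75 and 4.69 in mock, 4.32, 4.40, 4.23 and 4.41 after adriamycin and 4.65, 4.49, 4.58 and 4.30 after UV. The adriamycin arrays lay below all mock arrays and the UV arrays partly overlapped them. Kdr fell by 0.38 ± 0.073 after adriamycin (adjusted p = 0.000318) and 0.22 ± 0.073 after UV (adjusted p = 0.0231); the UV call was lost without mock replicate 1 or 3 or UV replicate 4 (adjusted p from 0.054 to 0.0868). Its difference between treatments was not called (-0.16 ± 0.073) but was without UV replicate 4 (-0.23, adjusted p = 0.0117). Of the heart and limb factors, Hand1 rose after UV by 0.16 ± 0.062 (adjusted p = 0.0439) and Tbx5 fell after adriamycin by 0.17 ± 0.065 (adjusted p = 0.0379). Both were dim, and both calls were lost without any of several arrays, Hand1 without mock replicate 1 or 2 or UV replicate 2, 3 or 4 (adjusted p up to 0.147) and Tbx5 without mock replicate 2, 3 or 4 or adriamycin replicate 2, 3 or 4 (up to 0.138). The Hand1 call was also lost with quantile normalization (0.08, adjusted p = 0.288), with arrays centred on their medians (0.07, adjusted p = 0.347) and with a trended and robust prior (adjusted p = 0.0742). Tbx5 was also lower after adriamycin than after UV (-0.19 ± 0.065), a call lost without adriamycin replicate 4, UV replicate 1 or UV replicate 4 (adjusted p up to 0.0752) and with quantile normalization (adjusted p = 0.0566). The paraxial mesoderm factors Tbx6, Msgn1 and Meox1 and the heart factors Hand2 and Isl1 were dim and were called in no comparison.

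The promoter stretch of Eomes, the gene with the largest fall, lies at chr9:118477939-118478188 on the plus strand (RefSeq, GRCm38.p6; CG in capitals) and held 8 CG dinucleotides. It is set beside that of Gbx2, the next largest fall, at chr1:89931177-89931426 on the minus strand, which held 18.
Eomes: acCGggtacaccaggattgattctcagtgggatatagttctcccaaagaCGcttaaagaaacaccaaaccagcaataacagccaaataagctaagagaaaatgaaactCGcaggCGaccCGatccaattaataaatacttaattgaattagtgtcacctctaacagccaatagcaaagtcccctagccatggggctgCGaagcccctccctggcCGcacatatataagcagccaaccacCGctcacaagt
Gbx2: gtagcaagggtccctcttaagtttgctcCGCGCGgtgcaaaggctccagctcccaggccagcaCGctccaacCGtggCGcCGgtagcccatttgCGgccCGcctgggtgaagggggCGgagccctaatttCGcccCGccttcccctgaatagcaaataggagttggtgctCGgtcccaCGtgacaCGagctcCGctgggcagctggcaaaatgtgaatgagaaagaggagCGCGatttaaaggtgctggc

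Of the neural genes, Gbx2, Tubb3, Pax6, Map2 and Nes fell after adriamycin and only Pax7 rose; after UV, Gbx2, Tubb3, Pax6 and Map2 fell. Gbx2, a homeobox factor of the hindbrain and of LIF-maintained stem cells, read 7.31, 7.35, 7.17 and 7.28 in mock, 5.87, 5.82, 5.88 and 5.66 after adriamycin and 6.83, 6.85, 6.98 and 7.03 after UV. Adriamycin arrays were lowest, UV arrays between and mock arrays highest, without overlap. It fell by 1.47 ± 0.065 after adriamycin (2.77-fold, adjusted p = 1.05e-11) and by 0.35 ± 0.065 after UV, and the difference between the treatments was -1.12 ± 0.065 (adjusted p = 1.32e-09). Tubb3, the neuronal β-tubulin, read 8.66, 8.72, 8.66 and 8.85 in mock, 7.98, 7.85, 7.94 and 7.78 after adriamycin and 8.37, 8.36, 8.47 and 8.33 after UV. It showed the same order without overlap. The falls were 0.83 ± 0.060 (adjusted p = 4.78e-09) and 0.34 ± 0.060 (adjusted p = 0.000178), with a difference of -0.49 ± 0.060 between the treatments (adjusted p = 5.03e-06). Pax6, the paired-box factor of forebrain and eye, was dim in R1E at 4.98, 4.88, 5.19 and 4.93 in mock, 4.30, 4.36, 4.05 and 4.31 after adriamycin and 4.73, 4.55, 4.54 and 4.57 after UV. Its groups were also separate and in that order, with falls of 0.74 ± 0.078 and 0.40 ± 0.078 and a difference of -0.34 ± 0.078 between the treatments, all called.

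Nes, the intermediate filament nestin of neural progenitors, was dim and read 5.70, 5.59, 5.72 and 5.72 in mock, 5.17, 5.12, 5.17 and 5.08 after adriamycin and 5.66, 5.70, 5.75 and 5.69 after UV. Adriamycin arrays were below all others, and the UV and mock arrays overlapped. The fall was 0.55 ± 0.048 after adriamycin (adjusted p = 5.08e-08); the UV change was 0.02 ± 0.048 (95% interval -0.09 to 0.12), and adriamycin lay 0.57 ± 0.048 below UV (adjusted p = 9.26e-08). Map2, a microtubule-associated protein of dendrites, was dim at 5.48, 5.45, 5.43 and 5.44 in mock, 5.10, 4.90, 5.0 and 4.99 after adriamycin and 4.84, 4.77, 4.59 and 4.75 after UV. Here the order was reversed, with UV arrays lowest, adriamycin arrays between and no overlap. Map2 fell by 0.45 ± 0.058 after adriamycin and 0.71 ± 0.058 after UV (adjusted p = 4.34e-08), and was higher after adriamycin than after UV by 0.26 ± 0.058 (adjusted p = 0.00171). Its gene spans 267 kb, the longest of the 53 genes.

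Sox1, an early factor of the neural plate, read 6.91, 7.06, 6.89 and 7.09 in mock, 6.94, 6.91, 6.72 and 6.92 after adriamycin and 6.89, 6.87, 6.97 and 7.07 after UV. All groups overlapped, with changes of -0.12 ± 0.067 (95% interval -0.26 to 0.02) and -0.04 ± 0.067 (-0.18 to 0.10) that were not called; with arrays centred on their medians the adriamycin change of -0.21 was called (adjusted p = 0.011). Pax7, a factor of the dorsal neural tube, was dim and rose by 0.21 ± 0.066 after adriamycin (adjusted p = 0.0133). That call was lost without mock replicate 1 (0.16, adjusted p = 0.0548), which alone read low at 5.17 against 5.39 to 5.41, and without adriamycin replicate 2 (0.16, adjusted p = 0.0523). It was also lost with quantile normalization (0.13, adjusted p = 0.0884) and with arrays centred on their medians (0.13, adjusted p = 0.0991). After UV the SOX factor Sox21 rose by 0.22 ± 0.062 (adjusted p = 0.00775), and the dim factors Neurog2 and Pou3f2, which drive neuronal differentiation, rose by 0.14 ± 0.053 and 0.18 ± 0.072. With arrays centred on their medians none of these 3 UV calls held (adjusted p of 0.11 for Sox21, 0.472 for Neurog2 and 0.289 for Pou3f2), nor did they with quantile normalization (0.0522, 0.263 and 0.233). A trended and robust prior ended the calls of Neurog2 (0.0826) and Pou3f2 (0.0652), and averaging both probe sets that of Pou3f2 (0.08, adjusted p = 0.272). The Neurog2 call was also lost without any 1 mock array or without UV replicate 1 or 4 (adjusted p up to 0.101). The Pou3f2 call was lost without any of 9 arrays (mock replicates 1 and 2, adriamycin replicates 1, 2 and 4 and all UV replicates, adjusted p up to 0.176).

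Between the treatments 5 more neural genes were lower after adriamycin than after UV by small amounts: Sox21 (-0.24 ± 0.062), Sox3 (-0.21 ± 0.072), Pou3f2 (-0.20 ± 0.072), Pax3 (-0.19 ± 0.071) and Neurog2 (-0.18 ± 0.053). Single arrays decided 3 of these calls: Sox3 was lost without adriamycin replicate 3 or 4 or UV replicate 3 or 4 (adjusted p up to 0.0979). Pou3f2 was lost without adriamycin replicate 1 or 3 or UV replicate 1, 3 or 4 (up to 0.121), and Pax3 without mock replicate 3, adriamycin replicate 1, 3 or 4 or UV replicate 1, 3 or 4 (up to 0.135). Pax3 was also lost with quantile normalization (adjusted p = 0.0941) and Pou3f2 when its probe sets were averaged (-0.12, adjusted p = 0.0752). Neurog1, Pou3f1, Olig2 and Six3 were called in no comparison.

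**Figure D2:**
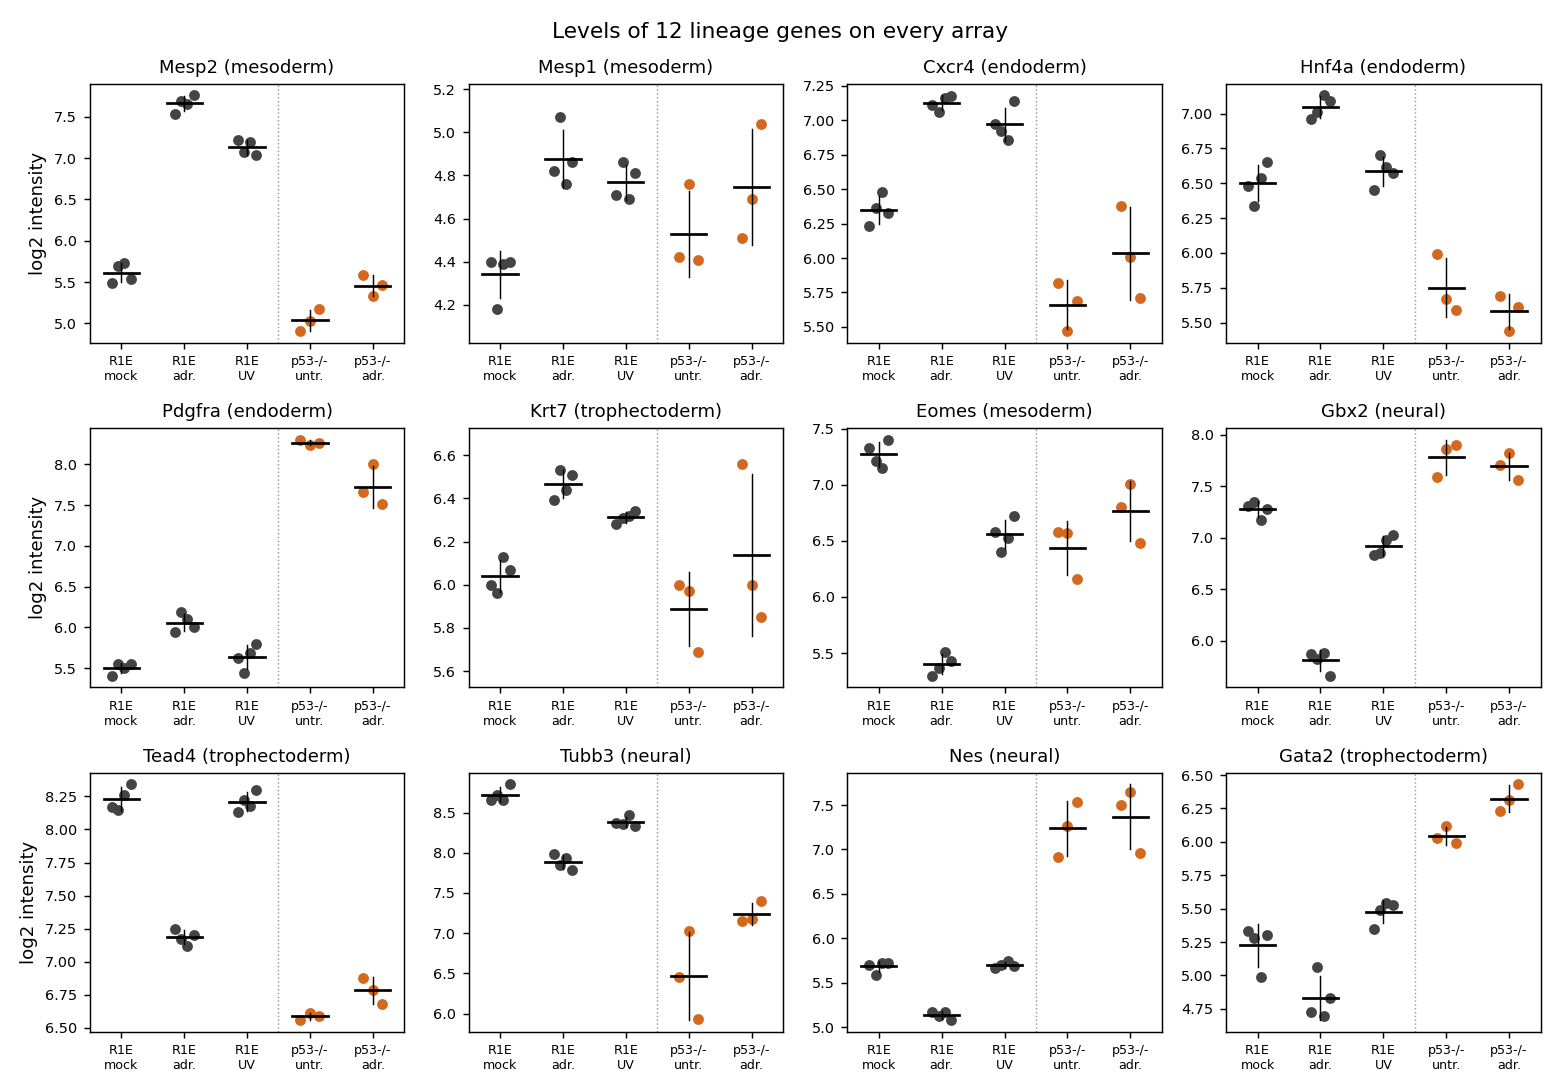
Log2 intensity of 12 lineage genes on every array; points are arrays, bars the group mean ± SD, and the dotted line separates the R1E (dark grey, 4 arrays a group) from the p53-/- arrays (orange, 3 a group), which were normalized separately. In R1E the adriamycin arrays lie below all mock arrays for Eomes (5.30 to 5.51 against 7.15 to 7.40), Gbx2, Tead4, Tubb3 and Nes, and above them for Mesp2 (7.54 to 7.76 against 5.49 to 5.73).

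Among the trophectoderm genes, Tead4, the TEA-domain factor that starts the lineage, separated the treatments most. Tead4 read 8.17, 8.15, 8.26 and 8.34 in mock, 7.25, 7.17, 7.12 and 7.20 after adriamycin and 8.13, 8.22, 8.18 and 8.30 after UV. All 4 adriamycin arrays were lower than the 8 others, and UV overlapped mock. It fell by 1.05 ± 0.056 after adriamycin (2.06-fold, adjusted p = 1.29e-10), its UV change was -0.02 ± 0.056 (95% interval -0.14 to 0.10), and the difference between the treatments was -1.02 ± 0.056 (adjusted p = 7.36e-10). Gata2, a GATA factor of trophoblast and blood, was dim in R1E at 5.33, 5.28, 4.99 and 5.30 in mock, 4.73, 5.06, 4.70 and 4.83 after adriamycin and 5.35, 5.49, 5.54 and 5.53 after UV. The UV arrays were above all others, while 1 mock array, replicate 3, lay within the adriamycin range. It fell by 0.40 ± 0.086 after adriamycin (adjusted p = 0.00102), rose by 0.25 ± 0.086 after UV (adjusted p = 0.0246), and differed by -0.65 ± 0.086 between the treatments (adjusted p = 1.31e-05). The UV rise was not called without mock replicate 3 or UV replicate 2, 3 or 4 (adjusted p from 0.0519 to 0.0955), nor with arrays centred on their medians (0.16, adjusted p = 0.125) or with quantile normalization (0.17, adjusted p = 0.101).

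The factors Cdx2 and Gata3, which act downstream of Tead4 in the embryo, did not pass the test in R1E. Cdx2 was dim at 4.20, 4.21, 4.28 and 4.35 in mock, 4.42, 4.30, 4.03 and 4.46 after adriamycin and 4.25, 4.20, 4.17 and 4.23 after UV. Gata3 was dim at 4.97, 4.96, 5.04 and 5.35 in mock, 5.12, 5.11, 4.84 and 5.23 after adriamycin and 5.04, 5.25, 5.27 and 5.13 after UV. Groups overlapped for both. The Cdx2 changes were 0.04 ± 0.076 (95% interval -0.12 to 0.20) and -0.05 ± 0.076 (-0.21 to 0.11), and those of Gata3 0.00 ± 0.092 (-0.20 to 0.19) and 0.09 ± 0.092 (-0.10 to 0.29). Without adriamycin replicate 3 alone, Cdx2 was called higher after adriamycin than after UV (0.18, adjusted p = 0.0223). Tfap2c, an AP-2 factor of trophectoderm and germ cells, Elf5, a trophoblast stem cell factor, and Esx1, a placental homeobox factor, were called in no comparison.

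The simple-epithelium keratins moved in both directions. Krt8 read 8.22, 8.20, 8.34 and 8.37 in mock, 7.78, 8.05, 7.89 and 7.90 after adriamycin and 8.15, 8.33, 8.11 and 8.37 after UV. Its filament partner Krt18 read 8.21, 8.01, 8.04 and 7.96 in mock, 7.70, 7.64, 7.70 and 7.72 after adriamycin and 7.80, 7.94, 7.88 and 7.88 after UV. For both, adriamycin arrays were below all mock arrays; UV overlapped mock for Krt8 and lay below it for Krt18. Krt8 fell by 0.38 ± 0.071 (adjusted p = 0.00024) and Krt18 by 0.37 ± 0.057 (adjusted p = 4e-05) after adriamycin. After UV, Krt8 changed by -0.05 ± 0.071, not called, and Krt18 fell by 0.18 ± 0.057, a call lost without mock replicate 1 or UV replicate 1 (adjusted p of 0.0688 and 0.0506). Against UV, both were lower after adriamycin, by 0.34 ± 0.071 and 0.19 ± 0.057. Krt7, another simple-epithelium keratin, read 6.0, 5.96, 6.13 and 6.07 in mock, 6.39, 6.53, 6.44 and 6.51 after adriamycin and 6.28, 6.31, 6.32 and 6.34 after UV. Its 3 groups were separate, with adriamycin highest. Krt7 rose by 0.43 ± 0.051 after adriamycin (adjusted p = 2.39e-06) and 0.27 ± 0.051 after UV (adjusted p = 0.00036), and was 0.16 ± 0.051 higher after adriamycin than after UV. The last call was lost without adriamycin replicate 2 or 4 or UV replicate 1 (adjusted p from 0.0501 to 0.0616), with quantile normalization (0.0887) and with a trended and robust prior (0.054).

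Krt8 and Krt18 lie 23.9 kb apart on chromosome 15, on opposite strands with 0 protein-coding genes between them, and Krt7 is on the same chromosome. The 250 bases before each start are shown because the pair fell and Krt7 rose (RefSeq, GRCm38.p6; CG in capitals): Krt8 at chr15:102004343-102004592 on the minus strand, Krt18 at chr15:102027966-102028215 on the plus strand and Krt7 at chr15:101412153-101412402 on the plus strand.
Krt8: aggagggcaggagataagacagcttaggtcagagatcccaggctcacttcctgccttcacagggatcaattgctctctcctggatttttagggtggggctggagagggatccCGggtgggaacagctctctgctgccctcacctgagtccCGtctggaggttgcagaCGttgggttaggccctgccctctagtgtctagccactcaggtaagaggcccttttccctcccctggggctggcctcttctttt
Krt18: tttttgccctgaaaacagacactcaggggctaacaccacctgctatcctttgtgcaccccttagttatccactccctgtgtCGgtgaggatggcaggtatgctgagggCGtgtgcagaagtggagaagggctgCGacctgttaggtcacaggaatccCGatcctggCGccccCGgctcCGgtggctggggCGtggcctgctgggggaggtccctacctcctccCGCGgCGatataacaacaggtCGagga
Krt7: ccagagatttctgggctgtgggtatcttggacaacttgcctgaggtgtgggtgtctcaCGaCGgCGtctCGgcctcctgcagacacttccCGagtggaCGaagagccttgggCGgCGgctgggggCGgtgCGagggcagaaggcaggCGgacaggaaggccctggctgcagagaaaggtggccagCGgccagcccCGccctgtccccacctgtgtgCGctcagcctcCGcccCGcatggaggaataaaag
They held 3, 12 and 16 CG dinucleotides, so the pair that fell together differed in this measure.

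In p53-/- cells, adriamycin gave no call among the 53 genes in limma. Of all genes 0.0953% were called, 0.015% higher and 0.0803% lower, and 0.0351% with a change of at least 2-fold. The groups did not overlap for 14 of the 53 genes (26.4%), 10 higher and 4 lower when treated, beside 17.5% of all genes. At an unadjusted p below 0.05 there were 10 lineage genes, beside 2319 of all 19935 genes, and the fits with a trended and robust prior, with the replicate number as a block and with a fold threshold also called 0. The median change was 0.14 over the 53 genes and 0.06 over all genes. Of those 10 genes, the endoderm genes Gata6, Sox17, Dab2 and Pdgfra were lower and Mesp2, Mixl1, Tubb3, Gata2, Krt18 and Ascl2 higher. Over all 13 endoderm genes the changes ran from -0.71 to 0.47, with a median of -0.11. With 3 arrays a group and a wider spread between them, precision was lower than in R1E, so a change missing the threshold does not show that a gene was unaffected.

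Without untreated replicate 3, the array that stood apart, 442 of all genes (2.22%) and 2 lineage genes were called. Gata6 read 8.08, 7.90 and 8.11 in untreated and 7.30, 7.48 and 7.18 in treated p53-/- cells. Every treated array was below every untreated array. The difference was -0.71 ± 0.131 with all arrays (adjusted p = 0.102) and -0.67 ± 0.132 without that array (adjusted p = 0.0285). Ascl2, a bHLH factor of the spongiotrophoblast, read 5.29, 5.29 and 5.26 in untreated and 5.80, 5.95 and 5.71 in treated p53-/- cells. Here all treated arrays were higher. The values were 0.54 ± 0.123 with all arrays (adjusted p = 0.158) and 0.53 ± 0.124 without it (adjusted p = 0.0478). Leaving out any other p53-/- array gave no lineage gene called and at most 6 genes in all.

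The adriamycin effect differed between R1E and p53-/- cells for 17 of the 53 genes, 5 with a more positive and 12 with a more negative change in R1E, where 10.4% and 11.4% of all genes, and 21.7% either way, were called. The more positive ones were 4 endoderm genes and Mesp2; the more negative ones were 3 mesoderm, 4 neural and 5 trophectoderm genes. The effects of 6 genes differed by 2-fold or more, beside 5.12% of all genes: Mesp2 and Pdgfra in the positive and Eomes, Tubb3, Gbx2 and Tead4 in the negative direction. The median difference was -0.19 over the 53 genes and -0.07 over all genes. Without p53-/- untreated replicate 1 or p53-/- adriamycin replicate 3 the more positive genes numbered 3.

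Of the genes read next, Mesp2, Mixl1, Mesp1, Kdr and Map2 were dim in p53-/- cells. For Mesp2, p53-/- arrays read 4.91, 5.03 and 5.17 untreated and 5.58, 5.33 and 5.46 treated. They did not overlap, but the change of 0.42 ± 0.130 was not called there (adjusted p = 0.25), and the effect in R1E was larger by 1.64 ± 0.147 (adjusted p = 1.84e-07). Eomes read 6.58, 6.57 and 6.16 untreated and 6.80, 7.01 and 6.48 treated. These groups overlapped, with a change of 0.33 ± 0.167 against the fall in R1E, and the effects differed by -2.2 ± 0.183 (adjusted p = 1.72e-07). Gsc read 5.78, 5.91 and 5.34 untreated and 5.83, 5.73 and 5.88 treated, also overlapping, and its effects differed by -0.84 ± 0.172. Mixl1 read 4.90, 5.10 and 5.04 untreated and 5.72, 5.14 and 5.64 treated, without overlap. Its effects differed by -0.54 ± 0.171 (adjusted p = 0.0322), a call lost without p53-/- untreated replicate 1 or 2 or p53-/- adriamycin replicate 1 or 3 (adjusted p up to 0.151). Mesp1 gave 4.42, 4.76 and 4.41 untreated and 4.51, 4.69 and 5.04 treated, and its difference of effects of 0.31 ± 0.176 was not called, nor was that of Kdr (-0.23 ± 0.154), with Kdr at 5.15, 5.33 and 5.23 untreated and 5.24, 5.13 and 4.88 treated.

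Tubb3 read 6.45, 7.03 and 5.93 in untreated and 7.15, 7.18 and 7.40 in treated p53-/- cells. The treated arrays were higher, opposite to R1E, but the change of 0.77 ± 0.223 was not called and untreated replicate 3 was the lowest array; without it the change was 0.50 ± 0.166. The effects differed by -1.60 ± 0.231 (adjusted p = 0.000161). Gbx2 read 7.59, 7.86 and 7.90 untreated and 7.71, 7.82 and 7.56 treated, with overlap, and its effects differed by -1.38 ± 0.151 (adjusted p = 2.69e-06). Pax6 read 7.25, 7.05 and 6.65 untreated and 6.94, 7.04 and 7.15 treated, overlapping as well, with a difference of effects of -0.80 ± 0.176 (adjusted p = 0.00266). Nes read 6.92, 7.26 and 7.54 untreated and 7.5, 7.65 and 6.96 treated, with a wide spread in both groups. Its difference of -0.69 ± 0.203 (adjusted p = 0.0269) was not called without p53-/- untreated replicate 1 or 2 or p53-/- adriamycin replicate 1 or 2 (adjusted p up to 0.129). The differences for Sox1 (-0.33 ± 0.151; 6.75, 7.10 and 6.96 untreated, 7.05, 7.26 and 7.15 treated) and Map2 (-0.36 ± 0.164; 5.16, 5.03 and 4.77 untreated and 4.95, 5.09 and 4.64 treated) were not called.

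Tead4 read 6.56, 6.61 and 6.59 in untreated and 6.88, 6.79 and 6.68 in treated p53-/- cells, with all treated arrays higher, and its effects differed by -1.24 ± 0.133 (adjusted p = 2.26e-06). Krt8 read 9.61, 9.77 and 9.67 untreated and 10.07, 9.98 and 9.72 treated, and Krt18 9.34, 9.34 and 9.09 untreated and 9.84, 9.60 and 9.58 treated. Treated arrays were higher without overlap for Krt18 and overlapped for Krt8, and the effects differed by -0.62 ± 0.152 (adjusted p = 0.00553) and -0.78 ± 0.146 (adjusted p = 0.000878). Gata2 read 6.03, 6.12 and 5.99 untreated and 6.23, 6.31 and 6.43 treated, with no overlap and a difference of effects of -0.67 ± 0.15 (adjusted p = 0.00206). In R1E Ascl2 read 7.39, 7.05, 7.25 and 7.25 in mock, 7.09, 7.16, 7.14 and 6.96 after adriamycin and 7.09, 7.25, 7.29 and 7.36 after UV, all overlapping, and its effects differed by -0.69 ± 0.143 (adjusted p = 0.00129). Cdx2 read 5.89, 6.22 and 5.97 untreated and 6.16, 6.22 and 6.01 treated, and Gata3 6.11, 6.28 and 6.20 untreated and 6.35, 6.22 and 6.41 treated. Neither Cdx2 (-0.06 ± 0.154) nor Gata3 (-0.13 ± 0.154) was called for the difference.

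Of the endoderm genes, Pdgfra read 8.30, 8.24 and 8.26 in untreated and 7.66, 8.01 and 7.51 in treated p53-/- cells. The treated arrays were all lower, the opposite of R1E, and the effects differed by 1.1 ± 0.162 (adjusted p = 5.76e-05). Over the same p53-/- arrays Col1a1 changed by -0.29 ± 0.152, Col1a2 by -0.22 ± 0.180 and Col3a1 by -0.38 ± 0.154, none of them called. The effects differed between the lines for 4 of the 16 fibroblast markers (25%), beside 21.7% of all genes. These were Fbln2 (1.87 ± 0.151), Col1a1 (0.89 ± 0.166), Mmp2 (0.81 ± 0.156) and Pdgfrb (0.50 ± 0.151). The part of the fibroblast markers in the Pdgfra value was not tested. Hnf4a read 5.99, 5.67 and 5.59 untreated and 5.69, 5.44 and 5.61 treated with overlap, and its effects differed by 0.72 ± 0.159 (adjusted p = 0.00284). For Gata6 the difference was 0.48 ± 0.156 (adjusted p = 0.0317), with lower treated levels in both lines and the larger change in p53-/- cells; it was not called without R1E adriamycin replicate 2, p53-/- untreated replicate 1 or p53-/- adriamycin replicate 1 or 3 (adjusted p up to 0.111), nor with quantile normalization (adjusted p = 0.0533). Sox17 read 6.17, 6.26 and 6.27 untreated and 6.01, 5.75 and 5.78 treated, with all treated arrays lower. In R1E Sox17 was dim, and its change of 0.05 after adriamycin was not called. Its difference of 0.44 ± 0.144 (adjusted p = 0.0348) was lost without R1E mock replicate 2, p53-/- untreated replicate 1 or 2 or p53-/- adriamycin replicate 2 or 3 (adjusted p up to 0.119) and with a trended and robust prior (adjusted p = 0.053). Cxcr4 read 5.82, 5.47 and 5.69 untreated and 6.38, 6.01 and 5.71 treated, and neither its difference (0.40 ± 0.184) nor that of Gata4 (0.10 ± 0.157; 7.67, 7.47 and 7.79 untreated and 7.59, 7.47 and 7.55 treated) was called.

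**Figure D3:**
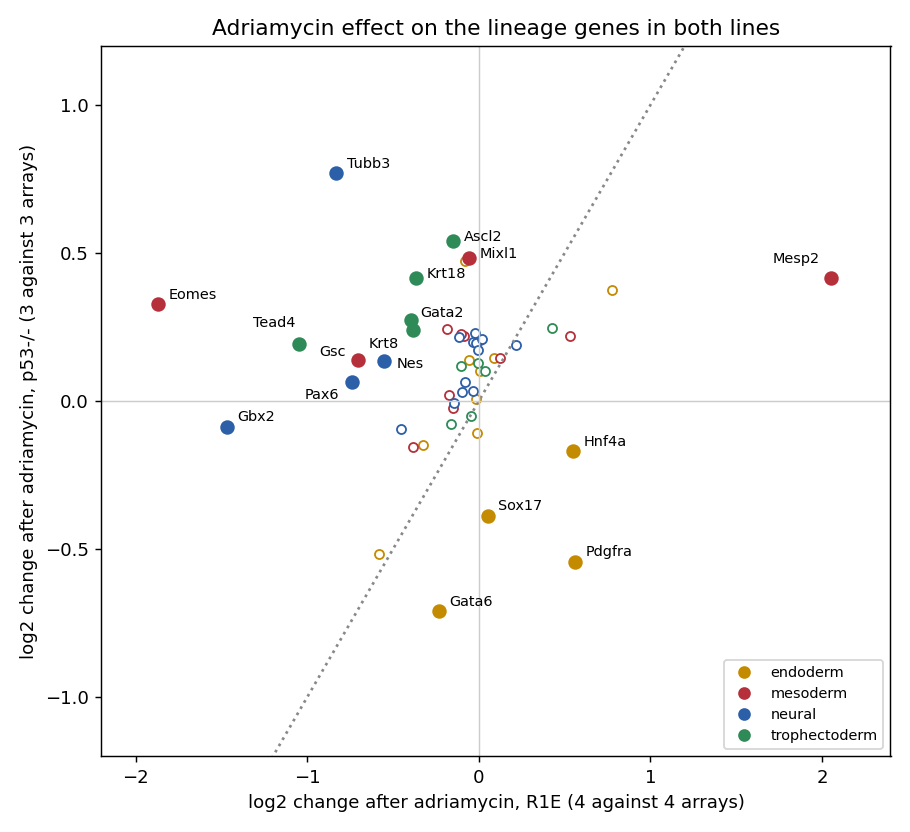
Log2 change after adriamycin in R1E (horizontal axis, 4 against 4 arrays) and in p53-/- cells (vertical axis, 3 against 3 arrays, with a shorter range than the horizontal) for the 53 lineage genes, by lineage; filled and named points are the 17 genes whose effects differed between the lines, and the dotted line marks equal change. Tubb3 lies at -0.83 and 0.77, and Pdgfra at 0.56 and -0.54.

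Before any treatment the lines differed in their lineage genes, which is described here without a test because the sets were normalized separately; gaps are given after array medians were aligned (an offset of -0.178). Of the 53 genes 18 (34.0%) were more than 1 log2 unit higher in untreated p53-/- than in mock R1E cells, beside 6.01% of all genes, and 4 (7.55%) were that much higher in R1E, beside 11.8%. Endoderm genes held 10 of the 18, with a median gap of 1.25 over all 13: Pdgfra (2.94), Sox17 (2.05), Dab2 (1.98), Foxa2 (1.73), Ttr (1.61), Gata6 (1.37), Sparc (1.25), Foxa1 (1.21), Sox7 (1.16) and Gata4 (1.08). The remaining endoderm genes were Afp (0.68) and, with lower levels in p53-/- cells, Cxcr4 (-0.51) and Hnf4a (-0.57). None of the 13 mesoderm genes among the 53 had such a gap. The neural genes Pou3f1 (3.24), Pax6 (2.17) and Nes (1.73) and the trophectoderm genes Cdx2 (1.94), Krt8 (1.58), Krt18 (1.38), Gata3 (1.30) and Gata2 (1.0) were higher in p53-/- cells. Tfap2c (-2.13), Tubb3 (-2.07), Ascl2 (-1.77) and Tead4 (-1.46) were higher in R1E. Other genes of these lineages, from the separate lists described below, were counted in the same way. Higher in p53-/- cells by more than 1 log2 unit were 15 of 24 endoderm and 9 of 24 mesoderm genes. So were 6 of 23 neural and 2 of 22 trophectoderm genes. In R1E 1 endoderm, 0 mesoderm, 2 neural and 5 trophectoderm genes of these lists were that much higher. In the same comparison 12 of 16 fibroblast markers were more than 1 log2 unit higher in p53-/- cells, with a median gap of 1.92; Col1a1 had means of 6.80 and 9.93, Col1a2 6.02 and 9.51 and Col3a1 5.06 and 7.69. Of the 20 markers of undifferentiated cells 10 were more than 1 log2 unit lower in p53-/- cells. The part of fibroblast RNA in these gaps was not tested.

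**Figure D4:**
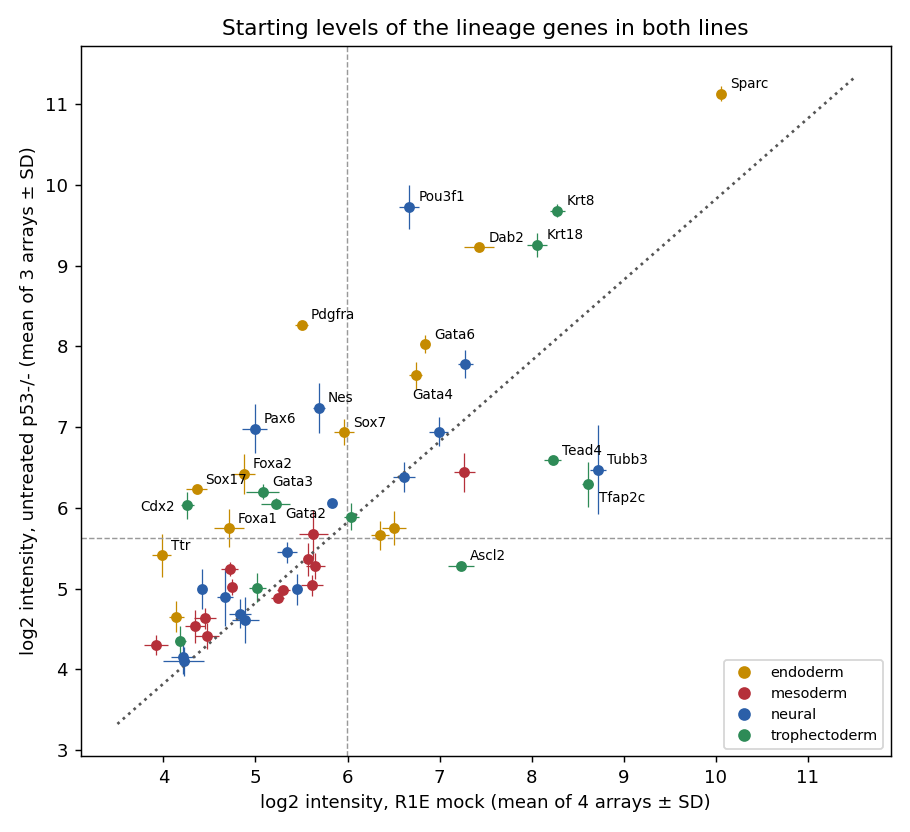
Mean log2 intensity ± SD of the 53 lineage genes in mock R1E (horizontal, 4 arrays) and untreated p53-/- cells (vertical, 3 arrays); the dotted line marks equal level after the array medians were aligned, dashed lines the dim limits of 5.99 and 5.63, and genes with a gap of 1 or more are named. Most endoderm genes lie above the dotted line, with Pdgfra at 5.50 and 8.27, and Tead4 lies below it at 8.23 and 6.59.

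Other genes of the same lineages were taken from separate lists and are read against the share called over all genes, 47.7% for adriamycin, 43.9% for UV, 42% between the treatments and 21.7% for the difference of effects. For adriamycin 37.5% of the endoderm, 37.5% of the mesoderm, 30.4% of the neural and 68.2% of the trophectoderm genes were called. For UV the shares were 50%, 45.8%, 39.1% and 59.1%, between the treatments 41.7%, 45.8%, 30.4% and 40.9%, and for the difference of effects 25%, 29.2%, 26.1% and 36.4%. After adriamycin in R1E, 6 of 24 further endoderm genes rose and 3 fell, led by Hhex (0.69) and Apob (0.58) and by Lrp2 (-0.60) and Lama1 (-0.54). Of 24 mesoderm genes 3 rose and 6 fell, with Des, the muscle filament desmin, at 1.86 and Foxc2 at 0.69, and Acta2 (-0.65) and Tcf15 (-0.63) lowest. Of 23 neural genes 2 rose and 5 fell, with Neurod1, a neuronal differentiation factor, at 2.13 and Nkx2-2 at 0.42, and Sox11 (-1.48) and Gap43 (-1.27) lowest. Of 22 trophectoderm genes 8 rose and 7 fell, led by Krt19 (0.99) and Sct (0.96) and by Phlda2 (-1.17) and Lgals3 (-0.77). After UV the counts were 6 and 6, 7 and 4, 4 and 5, and 7 and 6 in that order of lineages. Hhex (0.69), Apob (0.43), Des (1.13), Foxc2 (0.41), Neurod1 (1.47), Nkx2-2 (0.41), Sct (0.98) and Syna (0.71) led the rises, and Lrp2 (-0.90), Cubn (-0.74), Acta2 (-0.65), Myl7 (-0.25), Gap43 (-1.1), Ncam1 (-1.05), Fgfr2 (-0.50) and Dsp (-0.44) the falls. Directly between the treatments, adriamycin was higher most for Lamb1 (0.54), Lamc1 (0.44), Des (0.73), Foxc2 (0.28), Neurod1 (0.66), Ncam1 (0.58), Cdh3 (0.68) and Krt19 (0.65), and lower most for Apoe (-0.29), Rbp4 (-0.28), Tcf15 (-0.57), Twist1 (-0.36), Sox11 (-0.53), Otx1 (-0.27), Phlda2 (-0.86) and Lgals3 (-0.46). The effects differed between the lines, in the same order, for 4 and 2, 3 and 4, 1 and 5, and 3 and 5 genes more positive and more negative in R1E. The largest such differences were Apob (0.60) and Col4a2 (0.59), Des (1.81) and Snai2 (0.80), Neurod1 (2.18), and Sct (1.08) and Cdh3 (0.82), and in the other direction Rbp4 (-0.79) and Foxa3 (-0.43), Tcf15 (-0.80) and Myl7 (-0.55), Sox11 (-1.44) and Gap43 (-1.37), and Phlda2 (-1.39) and Dsp (-1.0). In p53-/- cells none of these genes was called.

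The lineage genes are also described, without a test, by features that their choice did not use. Their median span on the genome was 7.63 kb against 17.7 kb for all genes, 29 of 53 were under 10 kb (35.2% of all genes) and 2, Map2 and Dab2, above 100 kb (11.6% of all genes). Across the 53 genes Spearman's rho of span with the change was -0.14 for adriamycin and -0.19 for UV, a description only, since genes on the same arrays are not independent. Of the 53 genes 39 matched a RefSeq promoter entry, with 46 windows of 300 bases (250 before and 50 after the start). Their median GC content was 59.0% against 52.7% over all 32851 windows.

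Motifs were searched on both strands of these windows, except the TATA box, and a match is a description, not a site. The octamer ATGCAAAT was in 6.52% of the lineage windows and 1.74% of all, in Sox1, Neurog1 and Cdx2. The SOX core CATTGT was in 10.9% against 12.6%, among them Neurog1, Olig2 and Tubb3, and the T-box core TCACAC in 13% against 14.5%, among them Mesp1 and Gata2. The TATA box TATAAA on the gene's strand was in 13% against 8.32%, among them Cxcr4, Gsc and Krt8. The TATAAA match of Krt8 and the T-box match of Mesp1 are not within the 250 bases shown above, so they lie at or after the start. The p53 half-site consensus was in 4.35% against 8.36%, in Sparc and Tubb3. No motif spelled out here is contained in another.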

How the data were processed

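Biotin-labelled total RNA of 18 samples was hybridised to Affymetrix whole-transcript arrays, 1 array a sample. The deposited values are log2 intensities. The submitters' processing notes list Affymetrix Expression Console 1.1 for R1E samples, and Partek 6.4 with RMA for p53-/- samples; the Expression Console algorithm and the array annotation's genome build are not given in the sources used here.

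Groups were taken from the sample titles. Of 28853 probe sets, 28815 had values on all arrays; 21780 named 1 gene symbol, 1605 several and 5430 none, and 21689 of the first kind matched RefSeq. This gave 19935 genes, 998 of them with more than 1 probe set. Each set was fitted on its own with limma 3.58.1 (R 4.3.3; lmFit and eBayes, 1 coefficient a group, no covariate) and two-sided p-values were adjusted by Benjamini-Hochberg over all 19935 genes. The difference of the adriamycin effects used both fits' moderated errors with Satterthwaite degrees of freedom, adjusted in the same way. The code was tested on simulated data. Precision is limited by the number of arrays.

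The lineage genes, the other lists and the tests were chosen with earlier results of these data known. Every lineage gene called in any comparison is named; per-array values are given for up to 4 called changes a lineage and comparison of at least 0.5 on the log2 scale without overlap, and for a panel of 14 genes. Other lists are named by their 2 largest called changes in each direction. Alternatives were quantile normalization, centring, leaving out dim genes, averaging probe sets, a trended robust prior, the replicate number as a block, a 1.2-fold threshold (treat), fits restricted to the groups compared, a shared spread and leaving out each array. The threshold was not applied to the difference of effects.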

Additional observations from a re-analysis of the deposited data

Results flagged for a closer look

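In 11 of 159 groups of 4 arrays (6.92%), 1 array stood apart from the other 3 by Dixon's ratio (gap over range, at its 95% limit for 4 arrays); chance gives about 1 in 20 such groups. In mock samples these were Mesp1 (replicate 2 at 4.18 against 4.39 to 4.40, ratio 0.943), Pax7 (replicate 1 at 5.17 against 5.39 to 5.41, 0.927), Nes (replicate 2 at 5.59 against 5.70 to 5.72, 0.865), Gata2 (replicate 3 at 4.99 against 5.28 to 5.33, 0.861) and Tfap2c (replicate 4 at 8.69 against 8.57 to 8.59, 0.853). After adriamycin they were Olig2 (replicate 2 at 4.27 against 4.22 to 4.23, 0.887) and Sox1 (replicate 3 at 6.72 against 6.91 to 6.94, 0.841). After UV they were Gsc (replicate 3 at 5.40 against 5.24 to 5.25, 0.945), Hand2 (replicate 2 at 5.37 against 5.14 to 5.17, 0.879), Pax6 (replicate 1 at 4.73 against 4.54 to 4.57, 0.865) and Neurog1 (replicate 1 at 4.97 against 4.88 to 4.89, 0.848).

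The effect of adriamycin differed between R1E and p53-/- cells for 17 genes in limma. The R1E change was the more positive for Mesp2 (1.64), Pdgfra (1.1), Hnf4a (0.72), Gata6 (0.48) and Sox17 (0.44). It was the more negative for Eomes (-2.2), Tubb3 (-1.60), Gbx2 (-1.38), Tead4 (-1.24), Gsc (-0.84), Pax6 (-0.80), Krt18 (-0.78), Ascl2 (-0.69), Nes (-0.69), Gata2 (-0.67), Krt8 (-0.62) and Mixl1 (-0.54). In these values genotype cannot be told apart from the line, the array set or the software.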

How the results depend on the processing

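No call on a lineage gene reversed in any alternative run. Some calls held in every alternative run that tested the gene. These were 14 of 23 for adriamycin and 4 of 19 for UV (Cxcr4, Eomes, Mesp2 and Map2). They were 8 of 21 between the treatments and 13 of 17 for the difference of effects (all but Gata6, Sox17, Mixl1 and Nes). Genes dim in R1E, Map2 among them, were not tested in the R1E comparisons without dim genes. Mesp2, Pdgfra and Sox21 had mock means of 5.61, 5.50 and 5.83, below the limit of 5.99. They passed that filter only through a treated group, so the run without dim genes adds no support for their rises. For the difference of effects, the run without dim genes kept every gene above the limit in at least 1 line. Gsc, Pax6 and Gata2, dim in R1E, and Mesp2, dim in p53-/- cells, therefore stayed in it. Their calls were not tested against a dim level in 1 line. The 1.2-fold threshold was not applied to the difference of effects, so its share is not set on the same runs as the others. Counts moved by more than 1.5 times as follows. After adriamycin the lower genes went from 16 to 28 with arrays centred on their medians and to 8 both without dim genes and with a 1.2-fold threshold. After UV the higher genes went from 10 to 5 with quantile normalization, 4 with centring, 5 without dim genes and 2 with the threshold, and the lower genes from 9 to 2 with the threshold. Between the treatments the threshold left 2 higher and 6 lower genes, and 8 were lower without dim genes. Dim genes in p53-/- cells went from 22 to 37 with a limit 1 log2 unit higher. For all genes, the threshold moved the share of higher among called genes between the treatments from 47.2% to 62.5%. The cause of these moves was not tested, other than that a threshold and a filter leave fewer genes by construction.

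With 1 array left out, adriamycin gave 6 to 7 higher and 14 to 17 lower, UV 5 to 10 and 7 to 11, adriamycin against UV 4 to 6 and 13 to 19, p53-/- 0 to 1 and 0 to 1, and the difference of effects 3 to 5 and 10 to 14. Replicate numbers did not pair the arrays: deviations of same-numbered arrays correlated at -0.14 to 0.16 in R1E (12 pairs) and -0.10 to 0.19 in p53-/- (3 pairs). Differently numbered arrays of different groups correlated at -0.42 to 0.39 in R1E (36 pairs) and -0.17 to 0.08 in p53-/- (6 pairs). A pairing in another order or a shared batch was not tested. With the replicate number as a block the counts higher and lower were 7 and 15, 8 and 11, 5 and 17, 0 and 0, and 5 and 13, and the calls over all genes in p53-/- cells went from 19 to 5; Tbx5 after adriamycin (adjusted p = 0.0573) and Sparc (0.0653) and Pou3f2 (0.0633) after UV were then not called. A shared spread over 18 arrays gave 5 and 14 for the difference.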

Other observations

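Of 8 measured markers of other cell types, 5 were dim in R1E cells and showed no call there (Ptprc, Cdh5, Alb, Myh6 and Ins2). The other 3 were Krt5, the keratin of basal epithelia, Cd68, a lysosomal protein of macrophages, and Pecam1, an adhesion molecule of endothelium. Cd68 and Pecam1 were bright before treatment, with means of 9.22 and 9.33 in mock against 6.18 and 6.11 in untreated p53-/- cells, which were normalized separately. Krt5 rose in R1E by 3.05 ± 0.105 after adriamycin (8.30-fold) and 1.60 ± 0.105 after UV. Its mean went from 5.74 in mock to 8.79 and 7.34, while in p53-/- cells it was 4.97 untreated and 5.02 treated (0.05 ± 0.132, not called), and the effects differed by 3.01 ± 0.168 in limma. Cd68 rose by 0.69 ± 0.052 after UV and was not called after adriamycin; its adriamycin effects differed by 0.66 ± 0.167 between the lines, with -0.60 ± 0.159 in p53-/- cells (not called). Pecam1 fell by 0.22 ± 0.044 after adriamycin and 0.14 ± 0.044 after UV. Among the simple-epithelium keratins described above, Krt7 rose and Krt8 and Krt18 fell after adriamycin in the same R1E arrays.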
